A study of Mus musculus with 16 samples.

Results

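The cell cycle and centriole genes examined here were 42 genes listed by function: cyclins, cyclin-dependent kinases (CDKs), CDK inhibitors and transcriptional brakes, genes of DNA replication, genes of mitosis, and the centriole genes Plk4, Kif24 and Cep152. Members were found by the gene symbol of the array platform, which gave 44 probes of 40 genes, and Cdk1, deposited under the older symbol Cdc2a, was added through its accession. In all, 41 genes with 45 of the 24107 probes were measured, among 18501 named genes, and Ccnb1 was not analysed here.

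The 16 arrays were of the kind that hybridizes a pair of RNAs in different dyes, Cy3 and Cy5. Each paired RNA of staggerer mutant mice with control RNA from the same numbered litter, at postnatal days 5 to 6, and the strain is given as C57BL/6. Staggerer is a deletion in Rora, which encodes the nuclear receptor RORα, present in every cell of the animal and not limited to a cell type. RNA came either from the ventrobasal nucleus of the thalamus (VB), which relays touch from the whiskers, or from the somatosensory cortex, where VB axons end. Each of 4 litters was hybridized on a pair of arrays per tissue, once with the mutant RNA in Cy5 and once with the control RNA in Cy5, so each of the 4 combinations of tissue and dye assignment holds 4 arrays. Whether a litter's RNA came from 1 animal or from a pool is not given in the sources used here, and p-values measure the spread between litters. VB RNA was amplified by PCR before labelling and cortex RNA was not, so tissue and labelling method cannot be told apart.

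Progression through the cell cycle is driven by CDKs that cyclins switch on. D-type cyclins with Cdk4 and Cdk6 release the brake held by Rb1, whose target E2F1 turns on genes of DNA replication, and later cyclins, kinases and the spindle checkpoint carry cells through mitosis. Centrioles are copied once per cycle under the kinase Plk4, which the scaffold protein Cep152 recruits, and Kif24 is a kinesin of the mother centriole that restrains growth of the primary cilium. In the first postnatal week neurons of thalamus and cortex have left the cycle, and dividing cells there are chiefly glial precursors and vascular cells. In such bulk RNA, fewer cells of a type and less RNA per cell cannot be told apart.

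Promoters of 34 of the 42 genes were in the RefSeq table (build GRCm38.p6; 250 bases before to 50 after an annotated start). They are shown for the centriole genes Kif24 and Cep152, the members with the largest positive ratios in VB with columns used as deposited. Mcm6, a replication gene, and Cdk1, listed with the kinases, are shown as examples and need not be typical of their groups. Capitals mark letters searched on both strands, where a start is counted as base 0: the E2F letters TTTGGCGC, TTTCGCGC, TTTCCCGC or TTTGCCGC, and the letters TTTGAA or TTCGAA of the CHR, the cell cycle homology region found in promoters of mitosis genes. In Mcm6 a pair of E2F matches on opposite strands overlaps and forms 1 run of capitals. The Kif24 promoter is at chr4:41464799-41465098, that of Cep152 at chr2:125625064-125625363, that of Mcm6 at chr1:128359656-128359955 and that of Cdk1 at chr10:69352863-69353162, all on the minus strand.
Kif24: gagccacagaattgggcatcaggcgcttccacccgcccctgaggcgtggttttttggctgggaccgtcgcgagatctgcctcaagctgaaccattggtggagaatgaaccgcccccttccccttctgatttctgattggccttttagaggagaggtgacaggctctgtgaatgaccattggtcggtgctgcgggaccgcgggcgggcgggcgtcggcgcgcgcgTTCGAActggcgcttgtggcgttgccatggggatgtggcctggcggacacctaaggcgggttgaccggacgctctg
Cep152: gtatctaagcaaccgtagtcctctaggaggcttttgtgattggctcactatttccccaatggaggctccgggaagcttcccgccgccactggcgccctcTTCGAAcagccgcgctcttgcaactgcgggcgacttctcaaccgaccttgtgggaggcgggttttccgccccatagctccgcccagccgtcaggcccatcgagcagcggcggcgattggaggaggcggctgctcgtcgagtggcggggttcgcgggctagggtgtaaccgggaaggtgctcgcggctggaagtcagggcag
Mcm6: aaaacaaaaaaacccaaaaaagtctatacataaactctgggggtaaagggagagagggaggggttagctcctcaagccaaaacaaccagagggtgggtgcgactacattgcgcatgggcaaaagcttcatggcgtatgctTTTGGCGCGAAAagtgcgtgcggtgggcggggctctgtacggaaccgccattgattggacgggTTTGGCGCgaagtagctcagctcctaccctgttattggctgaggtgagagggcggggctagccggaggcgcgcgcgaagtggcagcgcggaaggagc
Cdk1: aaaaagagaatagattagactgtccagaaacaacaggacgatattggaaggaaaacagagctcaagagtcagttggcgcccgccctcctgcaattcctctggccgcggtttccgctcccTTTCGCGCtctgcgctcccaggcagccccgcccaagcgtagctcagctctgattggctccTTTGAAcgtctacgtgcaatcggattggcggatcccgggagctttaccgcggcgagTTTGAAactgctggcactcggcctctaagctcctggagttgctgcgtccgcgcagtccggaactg

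Kif24 and Cep152 each held 1 CHR match, TTCGAA, at -26 and -151, and 0 E2F matches. Mcm6, a subunit of the replicative helicase, held 3 E2F matches and 0 CHR matches, and Cdk1, the kinase of mitotic entry, held 1 E2F match at -131 and CHR matches at -71 and -15. Among the members, CHR letters were in the promoters of 14 of 34 genes (41.2%), against 5854 of 27025 genes in the table (21.7%). They were in 8 of 9 mitosis genes (88.9%), 2 of 3 centriole genes (66.7%) and 2 of 9 replication genes (22.2%). Of the 5 genes listed as inhibitors and brakes, 0 held them. That list includes E2f1, which turns on genes of DNA replication. E2F letters were in 6 of 34 members (17.6%), against 704 genes in the table (2.6%), and 4 of the 6 were replication genes. These shares describe letters only and carry no test. The promoters of Ccnd3 and Btg1 held 0 matches to either set.

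A value is a log2 ratio of the channels of an array. The deposited columns are taken to run 1 way, but whether mutant or control RNA is the numerator is not given in the sources used here. Ratios are therefore described by their sign alone, and which genotype had more of a transcript is not stated. A litter value is the mean of the swapped pair of arrays, and a gene was tested where at least 3 of 4 litters had one. Swapped arrays of the same litter deviated together only weakly, so the assumed direction of the columns has little support in the values. Over the 8679 VB probes with a value on all 8 arrays, Spearman's rho of these deviations ran from -0.0062 to 0.0649 over the litters and averaged 0.0216, against -0.00786 between different litters. Over 9980 cortex probes it ran from 0.0131 to 0.128 and averaged 0.0575, against -0.0192. Over the 868 VB and 998 cortex probes with the largest spread between litters, chosen after seeing the data, rho lay between 0.0724 and 0.183 for VB litters and between 0.0813 and 0.377 for cortex litters. Between different litters it averaged -0.0399 and -0.0658. Each deviation was taken from a probe's mean over the litters of a dye assignment. That centring ties the averages between different litters to those within a litter, so they are no independent baseline. Each array held 17711 to 22580 values, and 28 to 41 of the 41 genes had one on an array. The number of arrays limits the precision. The Rora probe had -0.13 ± 0.12 in VB (SD, n = 4 litters; limma adjusted p = 0.555) and -0.45 ± 0.26 in cortex (n = 3; 0.358), neither of which passed. Its position relative to the deletion was not determined, so it does not check the labels.

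In VB, the centriole genes Kif24 and Cep152 and the cell cycle brake Rb1 had positive ratios, the cyclin gene Ccnd3 and the antiproliferative gene Btg1 had negative ones, and the other members tested did not pass. Called members numbered 5 of 34 tested, against 0.311% of all 16066 features (50), at a limma adjusted p under 0.05. Of them 3 were positive, against 0.23% of all features, and 2 negative, against 0.0809%. The members were chosen with earlier results of these data known, so these shares do not test for an excess among them. At an unadjusted p under 0.05 there were 7 of 34, against 10.2% of all features, and the additions were Mcm4 and Cdkn1c. A size over 0.5 was reached by 5 of the 34 (Cep152, Kif24, Ccnd3, Cdkn1c and Rb1) and by 0.542% of all features. A size under 0.2 was seen for 27 of the 34 and for 92.1% of all features. The median over the tested members was 0.012, beside 0.006 over all features.

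**Figure D1:**
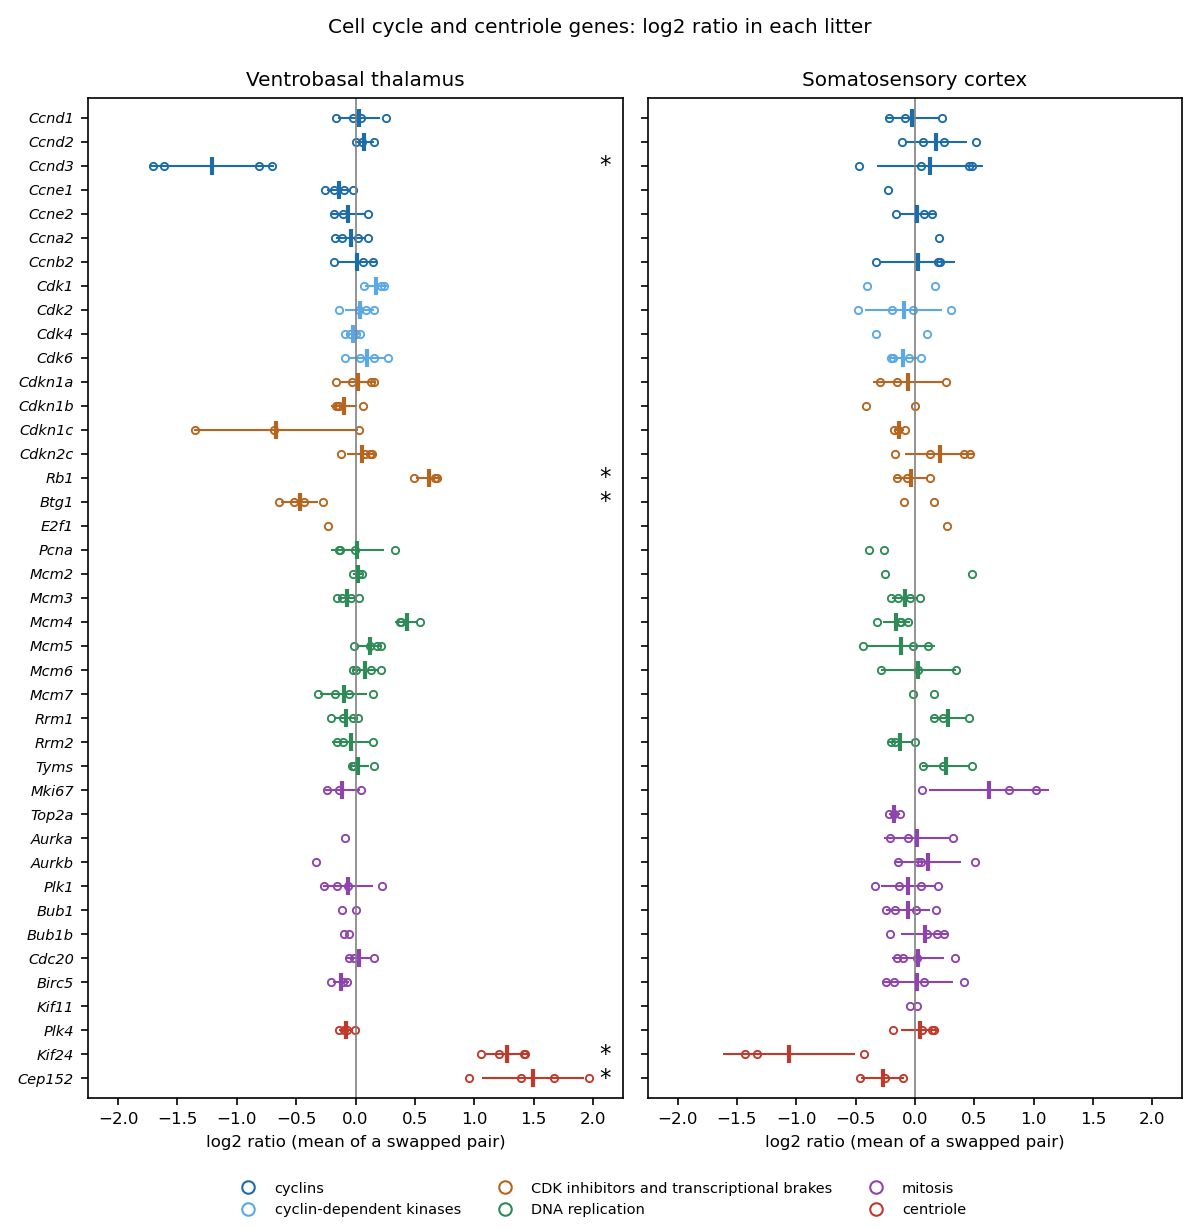
Log2 ratio of every measured cell cycle and centriole gene in each litter (open circles, each the mean of a swapped pair of arrays), in VB on the left and cortex on the right, with colours for the role. Thick ticks are means and thin lines the SD, drawn for genes tested (at least 3 litters). Asterisks mark the 5 genes called by limma in VB, while 0 genes are marked in cortex. Most genes form a column near 0, and Cdkn1c in VB, not called, has a mean further from 0 than the called Rb1 and Btg1.

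Kif24 had the lowest p of all 16066 features in VB. Its litter values were 1.42, 1.42, 1.05 and 1.21. They gave a mean of 1.28 ± 0.18 (SD, n = 4; 2.42-fold in base 2; limma adjusted p = 0.000143), with a 95% interval of 1.10 to 1.45. All 4 litters were positive and lay close together. The single arrays did not: with control RNA in Cy5 litters 1 to 4 had 3.13, 2.56, 2.22 and 2.45, and with mutant RNA in Cy5 they had -0.28, 0.28, -0.12 and -0.033. Every array of the first kind was far above 0 and those of the second lay around 0, so the positive mean came from 1 dye assignment.

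Cep152 ranked 4 by p. Its litter values in VB were 1.67, 1.39, 1.96 and 0.96, with a mean of 1.50 ± 0.43 (SD, n = 4; 2.82-fold; limma adjusted p = 0.000849) and a 95% interval of 1.21 to 1.78. With control RNA in Cy5 the arrays had 3.31, 3.29, 4.07 and 2.15, and with mutant RNA in Cy5 they had 0.029, -0.51, -0.14 and -0.24. The pattern over the arrays was thus that of Kif24, with litter 4 the lowest of the high arrays. Plk4, the kinase that Cep152 brings to the centriole, was below 0 in 4 of 4 litters at -0.081 ± 0.057 (n = 4; adjusted p = 0.714; 95% interval -0.22 to 0.061). The 3 centriole genes therefore did not share a ratio in VB.

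Rb1 encodes the retinoblastoma protein, which binds E2F factors and holds cells before DNA replication. It had litter values of 0.68, 0.67 and 0.50 in VB, and litter 4 had no pair. The mean was 0.62 ± 0.10 (SD, n = 3; 1.53-fold; limma adjusted p = 0.0159). Arrays with control RNA in Cy5 had 1.50, 1.21 and 1.18, and those with mutant RNA in Cy5 had -0.13, 0.13, -0.18 and -0.16, again high in 1 assignment and near 0 in the other. With each unpaired array counted, Rb1 had 0.42 and did not pass (adjusted p = 0.427).

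Among the replication genes, Mcm4, a subunit of the helicase ring, had the same layout at a smaller size. Its litter values were 0.54, 0.38 and 0.37, with no pair in litter 3, and the mean of 0.43 ± 0.096 (SD, n = 3) did not pass (limma adjusted p = 0.0734). With a dye term it did (0.42, adjusted p = 0.0233). That fit took single arrays rather than litter values, with a shared correlation within litters. Arrays with control RNA in Cy5 had 1.04, 0.77, 0.86 and 1.04, and those with mutant RNA in Cy5 had 0.045, -0.0090 and -0.29. The other subunits stayed near 0 in VB, with 0.019 for Mcm2, -0.069 for Mcm3, 0.12 for Mcm5, 0.083 for Mcm6 and -0.10 for Mcm7, the most negative replication gene tested. Of the 10 replication genes tested 0 passed by limma, against 0.311% of all features. An unadjusted p under 0.05 was reached by 1, Mcm4, against 10.2% of all features. The clamp gene Pcna had 0.014 ± 0.22, the ribonucleotide reductase genes Rrm1 and Rrm2 had -0.077 ± 0.10 and -0.038 ± 0.16, and Tyms, the gene of thymidylate synthase, had 0.023 ± 0.090.

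Ccnd3 encodes cyclin D3, an activator of Cdk4 and Cdk6. Its VB litter values were -1.61, -1.71, -0.70 and -0.81, a mean of -1.21 ± 0.52 (SD, n = 4; 0.432-fold; limma adjusted p = 0.0102). With control RNA in Cy5 the arrays had -2.01, -2.27, -0.87 and -1.85, and with mutant RNA in Cy5 they had -1.21, -1.15, -0.54 and 0.23. All arrays but 1 were negative, and litters 1 and 2 were the most negative in both assignments. The call ended without litter 1 (-1.07, adjusted p = 0.0983) with robust eBayes (0.128) and with unpaired arrays counted (0.0903). The related genes Ccnd1 and Ccnd2 had 0.028 ± 0.17 (n = 4) and 0.074 ± 0.079 (n = 3), the latter the most positive cyclin. Among the other cyclins, which act at the start of DNA replication or in mitosis, Ccne1 had -0.14 ± 0.10 and was negative in 4 of 4 litters, Ccne2 had -0.061 ± 0.15, Ccna2 had -0.037 ± 0.13 and Ccnb2 had 0.010 ± 0.17.

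Ccnd1, the gene of cyclin D1, had a mean near 0 made of opposed dye assignments. With mutant RNA in Cy5 its VB arrays had 0.53, 0.20, 0.56 and 0.39, and with control RNA in Cy5 they had -0.57, -0.53, -0.051 and -0.30. All arrays of the first kind were positive and all of the second negative. By limma the first assignment alone passed (adjusted p = 0.0249) and the second did not (0.0757). Read as Cy5 over Cy3, Ccnd1 would have 0.39 (adjusted p = 0.0031). Under the column direction used here, that value measures the gap between the dye assignments and not the ratio.

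Btg1, an antiproliferative gene that blocks progression from the resting state, had litter values of -0.28, -0.44, -0.52 and -0.65 in VB. The mean was -0.47 ± 0.16 (SD, n = 4; 0.722-fold; limma adjusted p = 0.0303). With control RNA in Cy5 the arrays had -0.45, -1.11, -0.74 and -1.27, and with mutant RNA in Cy5 they had -0.10, 0.24, -0.31 and -0.019. The first were all negative and the second lay around 0. Leaving out any 1 litter ended the call (adjusted p 0.0506 to 0.127), with ratios of -0.53 to -0.41, and so did counting unpaired arrays (adjusted p = 0.141).

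Cdkn1c, which encodes the CDK inhibitor p57, had VB litter values of -1.35, 0.028 and -0.68 and none in litter 1. The mean of -0.67 ± 0.69 (SD, n = 3; limma adjusted p = 0.286) did not pass, and litter 3 stood near 0. Its arrays with control RNA in Cy5 had -1.29, -2.62, 0.14 and -1.45, and those with mutant RNA in Cy5 had -0.082, -0.086 and 0.087. The other CDK inhibitors Cdkn1a, Cdkn1b and Cdkn2c had 0.023 ± 0.15, -0.096 ± 0.11 and 0.054 ± 0.12. E2f1 had 1 litter with a pair (-0.23) and was not tested.

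The kinases had small ratios in VB, from 0.17 ± 0.091 (n = 3) for Cdk1 to -0.024 ± 0.055 (n = 4) for Cdk4. Of the 4, 0 passed by limma and 0 had an unadjusted p under 0.05, against 0.311% and 10.2% of all features. Cdk6 had 0.094 ± 0.16, but its probes differed: 1 had -0.47 when mutant RNA carried Cy5 and 0.84 when control RNA did, and the other had 0.24 and -0.098. Cdk2 had 0.034 ± 0.12 (n = 4), with 0.12 ± 0.22 (n = 4) for 1 probe and -0.12 ± 0.051 (n = 3) for the other. Values averaged over the probes of Cdk6 or Cdk2 therefore hide a disagreement.

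Mitosis genes were the least measured in VB, where 4 of 10 could be tested. They ranged from 0.029 ± 0.11 for Cdc20, an activator of the anaphase complex, to -0.13 ± 0.068 for Birc5, which encodes survivin (both n = 3). Between them lay Plk1, the mitotic polo kinase, at -0.064 ± 0.21 (n = 4) and Mki67, the gene of the proliferation antigen Ki-67, at -0.11 ± 0.14 (n = 3). Of the 4, 0 passed by limma and 0 had an unadjusted p under 0.05, against 0.311% and 10.2% of all features. Top2a and Kif11 had 0 litters with a pair, Aurka and Aurkb had 1 each, and the checkpoint genes Bub1 and Bub1b had 2 each. These genes went untested for want of values, which says nothing of the size of their ratios. Over all 34 tested members 27 had a 95% interval within 0.5 log2 units of 0.

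**Figure D2:**
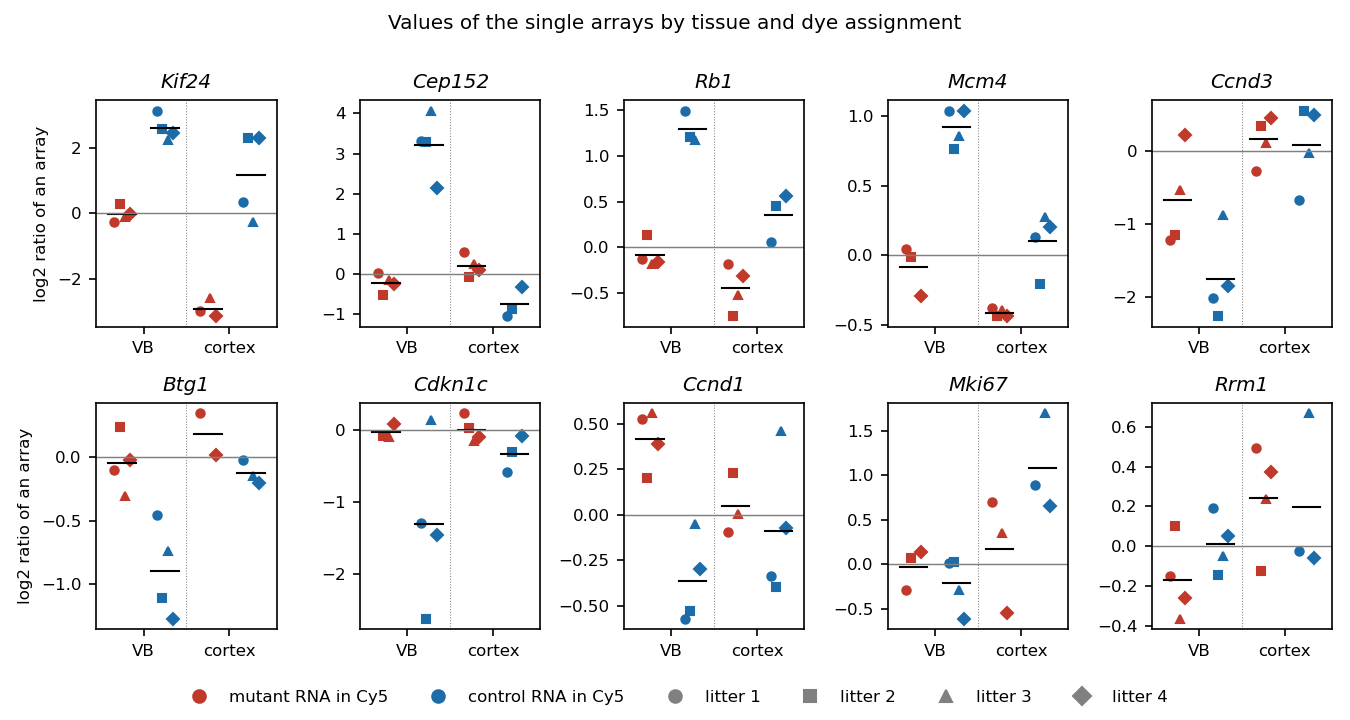
Log2 ratio of every single array for 10 genes, by tissue (VB left and cortex right of the dotted line) and dye assignment (red, mutant RNA in Cy5; blue, control RNA in Cy5), with 1 symbol per litter and a bar at the mean of each set. Scales differ between panels. In VB the blue arrays of Kif24, Cep152, Rb1 and Mcm4 lie above 0 with red arrays near 0, and those of Ccnd3 and Btg1 lie below 0.

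The dye assignments, taken alone, called different members in VB. A single assignment holds any dye effect together with the ratio, so its calls cannot tell them apart. Arrays with control RNA in Cy5 gave 9 of 39 members (Btg1, Ccnd3, Cdk6, Cdkn1c, Cep152, Kif24, Mcm4, Mcm7 and Rb1), against 8.02% of all features. Arrays with mutant RNA in Cy5 gave 2 of 36 (Ccnd1 and Ccnd3), against 6.48%. Ccnd3 was called in both, with -1.75 ± 0.61 and -0.67 ± 0.67 (SD, n = 4 each). Of the 5 genes called on litter values, only Ccnd3 was called in both assignments. With mutant RNA in Cy5, Btg1 had -0.048 ± 0.23, Kif24 -0.037 ± 0.23, Cep152 -0.21 ± 0.23 and Rb1 -0.085 ± 0.15 (SD, n = 4 each). These means matched the sign of the other assignment for Btg1 and opposed it for the rest, but lay too near 0 for the sign to tell the genes apart. Over the 34 tested members 9 had the same sign in both (26.5%), against 32.2% of all features. For 18 of 34 members the arrays with control RNA in Cy5 had the ratio of larger size, against 52.6% of all features. If the columns were instead read as Cy5 over Cy3, 9 of 34 members would be called in VB, against 17.3% of all features. Should the columns run 1 way, that reading measures the gap between the dye assignments. The signs of the 5 called genes would turn, with -1.31 for Kif24, -1.71 for Cep152, -0.68 for Rb1, 0.54 for Ccnd3 and 0.42 for Btg1. Kif24 and Cep152 were called with a positive ratio in VB under every alternative tried except that reading and the arrays with mutant RNA in Cy5 alone. Quantile normalization ended the calls of Rb1 (0.46, limma adjusted p = 0.115) and Btg1 (-0.52, 0.0912), and 1 fit of both tissues that of Btg1 (0.123).

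**Figure D3:**
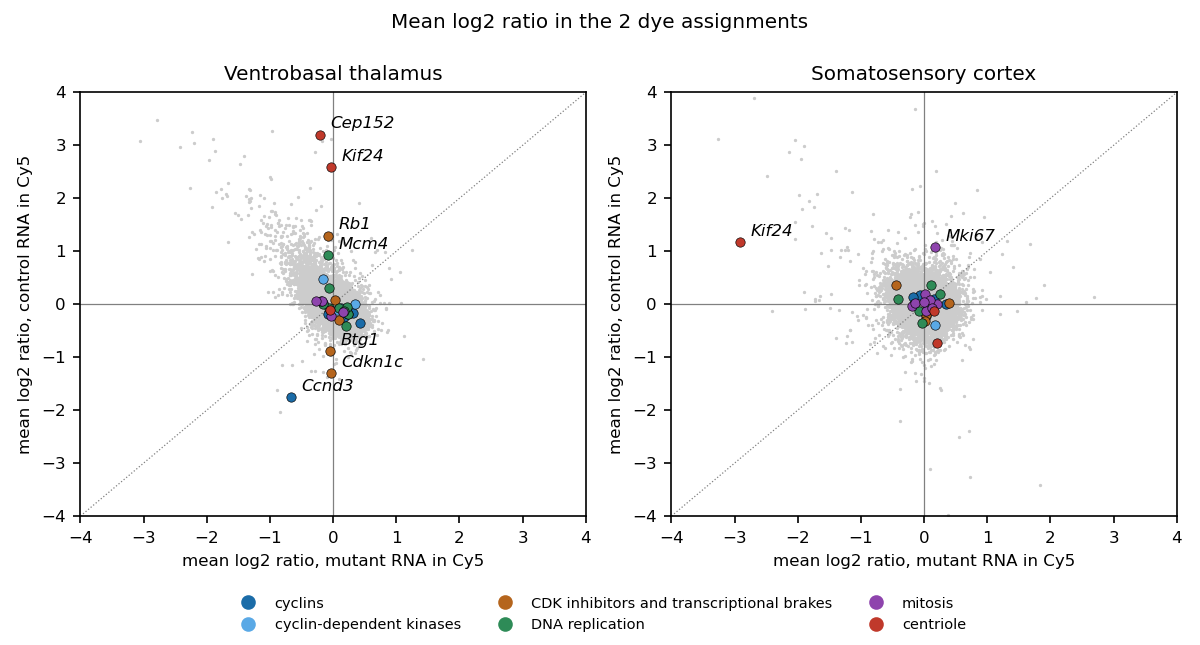
Mean log2 ratio of the arrays with mutant RNA in Cy5 (x axis) against that of the arrays with control RNA in Cy5 (y axis) for features tested in VB (left) and cortex (right), with cell cycle and centriole genes coloured by role and other features in grey (those beyond 4 log2 units on either axis are not drawn). Kif24 and Cep152 in VB lie on the vertical axis far above 0, Ccnd3 lies in the quadrant where both means are negative, and Kif24 in cortex has opposite signs at -2.92 and 1.17.

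In cortex none of the cell cycle and centriole genes passed. By limma 0 of 30 tested members were called, against 0.0605% of all 16521 features (10). An unadjusted p under 0.05 was reached by 3 (Kif24, Mki67 and Rrm1), or 10%, near the 7.9% of all features. A size over 0.5 was reached by 2 members (Kif24 and Mki67) and by 1.43% of all features. A size under 0.2 was seen for 24 of 30, against 82.2%, and 25 had a 95% interval within 0.5 log2 units of 0. The median was -0.003 over the members and -0.003 over all features.

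Kif24 had cortex litter values of -1.33, -1.43 and -0.43, and litter 2 had no pair. The mean was -1.06 ± 0.55 (SD, n = 3; 0.479-fold) and missed the threshold (limma adjusted p = 0.0729), though 3 of 3 litters were negative. With mutant RNA in Cy5 its arrays had -3.00, -2.60 and -3.15, and with control RNA in Cy5 they had 0.34, 2.30, -0.26 and 2.30. The first were uniformly far below 0 and the second scattered from near 0 to far above it. In the first assignment alone Kif24 was the 1 of 33 members called, against 0.497% of all features, at -2.92 ± 0.28 (SD, n = 3; limma adjusted p = 4.47e-06). With the unpaired array of litter 2 counted, the opposed arrays nearly cancelled. Read as Cy5 over Cy3, Kif24 would be called at -1.85, the 1 of 30 members, against 1.53% of all features.

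The other centriole genes in cortex did not pass. Cep152 had litter values of -0.25, -0.46 and -0.10, all below 0, and a mean of -0.27 ± 0.18 (SD, n = 3; limma adjusted p = 0.655). Its arrays with control RNA in Cy5 had -1.04, -0.86 and -0.31, all negative, and those with mutant RNA in Cy5 had 0.54, -0.058, 0.24 and 0.10. In VB it was the arrays with control RNA in Cy5 that were strongly positive. Plk4 had 0.044 ± 0.16 (n = 4), the most positive centriole gene.

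Mki67 had cortex litter values of 0.79, 1.02 and 0.058, with no pair in litter 2. The mean of 0.62 ± 0.50 (SD, n = 3; limma adjusted p = 0.292) was positive in 3 of 3 litters, and litter 4 was near 0. Arrays with control RNA in Cy5 had 0.89, 1.69 and 0.66, and those with mutant RNA in Cy5 had 0.70, 0.35 and -0.54. The first were all positive and the second mixed. In the first assignment alone Mki67 was the 1 of 40 members called, against 0.741% of all features, at 1.08 ± 0.54 (limma adjusted p = 0.0457). With Mki67, 6 of the 9 mitosis genes tested were positive, against 49.1% of all features, but the other 8 had ratios of smaller size. They ran from -0.17 ± 0.046 (n = 3) for Top2a, a DNA topoisomerase of dividing cells, to 0.11 ± 0.28 (n = 4) for Aurkb, the kinase of the chromosomal passenger complex.

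Rrm1, the large subunit of ribonucleotide reductase, had cortex litter values of 0.24, 0.45 and 0.16. The mean was 0.28 ± 0.15 (SD, n = 3; limma adjusted p = 0.621), positive in 3 of 3 litters. Rrm2, the small subunit of the same enzyme, had -0.12 ± 0.11 (n = 3), negative in 3 of 3. Tyms had 0.26 ± 0.21 (n = 3) and Mcm4 had -0.16 ± 0.12 (n = 4), the most negative replication gene tested. Pcna, not tested there, had -0.26 and -0.39 in its 2 litters with a pair. The subunits of ribonucleotide reductase thus did not share a sign. Of the other helicase genes tested, Mcm3 had -0.085 ± 0.11 (n = 4), Mcm5 had -0.12 ± 0.29 (n = 3) and Mcm6 stood near 0 at 0.027 ± 0.31 (n = 3). Ccnd3, called in VB, had cortex litter values of -0.47, 0.45, 0.050 and 0.48, on both sides of 0, with a mean of 0.13 ± 0.44 (adjusted p = 0.899). Rb1 had -0.030 ± 0.14 (n = 3), and Btg1 had 2 litters with a pair, 0.16 and -0.091, and was not tested.

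The remaining cortex ratios tested were small. Cyclins ran from -0.022 ± 0.23 for Ccnd1 (n = 3) to 0.18 ± 0.26 for Ccnd2 (n = 4). The 2 kinases tested, Cdk2 and Cdk6, had -0.095 ± 0.33 and -0.098 ± 0.12. Inhibitors and brakes ran from -0.13 ± 0.044 for Cdkn1c (n = 3) to 0.21 ± 0.29 for Cdkn2c (n = 4), which encodes the Cdk4 and Cdk6 inhibitor p18. Among these 11 genes 0 passed by limma and 0 had an unadjusted p under 0.05, against 0.0605% and 7.9% of all features. The members not tested in cortex were Ccne1, Ccna2 and E2f1, with 1 litter each, and Cdk1, Cdk4, Cdkn1b, Btg1, Pcna, Mcm2, Mcm7 and Kif11, with 2 each.

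The difference between VB and cortex was tested over the litter values of both tissues. Kif24 and Cep152 passed, with ratios positive in VB and negative in cortex, and 0 other members did. They made 2 of 25 members tested in both tissues, against 0.0985% of 12178 features (12). With members chosen in knowledge of earlier results, that share does not test for an excess either. Kif24 differed by 2.34 (95% interval 1.88 to 2.80; limma adjusted p = 0.000595), the lowest p of all features tested, and Cep152 by 1.77 (1.33 to 2.20; adjusted p = 0.00308). At an unadjusted p under 0.05 there were 7 of 25, against 9.04%, and the additions were Ccnd3, Mcm4, Rb1, Mki67 and Rrm1. Ccnd3 differed by -1.34 (adjusted p = 0.0773) and passed with litter as a replicate block (adjusted p = 0.0225). Mcm4 differed by 0.59 (0.153), Rb1 by 0.65 (0.171), Mki67 by -0.73 (0.343) and Rrm1 by -0.36 (0.411). Plk4 differed by -0.12, with an interval of -0.37 to 0.13.

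Of the 25 members tested in both tissues, 10 had the same sign in both, against 50.5% of all features. With each unpaired array counted, Kif24 differed by 1.50 (limma adjusted p = 0.481) and Cep152 by 1.64 (0.0563), and neither passed. For Cep152 the difference came from the arrays with control RNA in Cy5 (3.94), and in those with mutant RNA in Cy5 it was -0.42. For Kif24 the difference was positive in both, at 2.88 when mutant RNA carried Cy5 and 1.42 when control RNA did (adjusted p = 0.146). Read as Cy5 over Cy3, the differences would be 0.54 for Kif24 and -2.18 for Cep152. The gap between the dye assignments had the same sign in both tissues for 22 of 40 members, against 55.6% of all features. VB and cortex arrays also differed in labelling method, whose part in these differences was not tested.

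**Figure D4:**
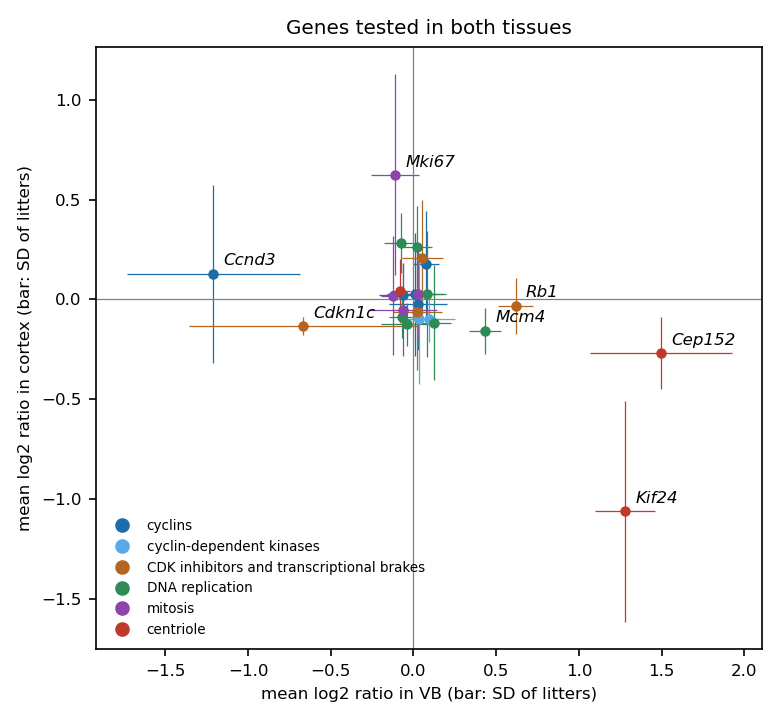
Mean log2 ratio in VB (x axis) against that in cortex (y axis) for the 25 cell cycle and centriole genes tested in both tissues, coloured by role, with bars for the SD of litters. Kif24 and Cep152 sit at the lower right, positive in VB and negative in cortex, Ccnd3 sits at the far left, and most others lie within 0.3 log2 units of 0 on both axes.

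Genes of the same pathways that were not members, 151 in a list drawn up with earlier results of these data known, had 102 tested in VB and 108 in cortex. By limma 0 were called in VB (52 positive, 50 negative; 10 at an unadjusted p under 0.05, or 9.8%, against 10.2% of all features) and 0 in cortex (57 positive, 51 negative; 13, or 12%, against 7.9%). The lowest p in VB belonged to Kif4, a chromosome-bound kinesin, at -0.35 ± 0.16 (SD, n = 3; adjusted p = 0.176), and to Ccnc, cyclin C of the transcription machinery, at -0.28 ± 0.16 (n = 4; 0.205). In cortex they belonged to Cdca3, which triggers mitotic entry, at 0.61 ± 0.59 (n = 4; 0.303), and to Wee1, the kinase that holds Cdk1 in check, at 0.49 ± 0.49 (n = 3; 0.470). Of 27 other centriole and centrosome genes tested in VB, 22 were positive (81.5%, against 52.5% of all features) and 5 negative, with a median of 0.029, beside 0.006 over all features. Their median by litter was 0.13, 0.063, -0.0096 and -0.0045, so litters 3 and 4 did not lean positive, and in cortex 16 of 32 were positive. Their highest ratio was 0.31 ± 0.32 for Cep57 (n = 3; adjusted p = 0.388), far below those of Kif24 and Cep152.

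Markers of other cell types had medians near 0 for most types, and larger ones for red blood cells in cortex and cortical neurons in VB. Neural progenitor genes had a median of -0.033 in VB (1 of 4 tested positive) and -0.063 in cortex (2 of 5). Oligodendrocyte precursor genes had -0.030 in VB (2 of 5) and -0.094 in cortex (1 of 3), and endothelial genes had -0.043 (2 of 5) and -0.021 (1 of 3). Ependymal genes, whose cells make many centrioles, had -0.068 in VB (0 of 2) and -0.056 in cortex (1 of 2). Microglia genes had -0.017 (2 of 4) and -0.105 (1 of 4). Red blood cell genes had -0.032 in VB (2 of 4) and -0.345 in cortex (0 of 2), where Hbb-bt, a haemoglobin gene, had -0.53. Cortical neuron genes had a median of 0.22 in VB (2 of 2), with 0.40 for Slc17a7, a vesicular glutamate transporter, and -0.064 in cortex (2 of 4), with 0.80 for Neurod6. Thalamic neuron genes had 0.049 in VB (1 of 2) and 0.050 in cortex (3 of 4). By limma 0 markers were called in either tissue, against 0.311% of all features in VB and 0.0605% in cortex. An unadjusted p under 0.05 was reached by 3 of 28 in VB, against 10.2% of all features, and by 2 of 27 in cortex, against 7.9%. The part of such cells in the ratios above was not tested. Ratios carry no level, so the dissected tissue could not be checked against its markers.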

How the data were processed

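The deposited values are log2 ratios of the channels of an array, normalized by the authors. The base is not stated and is taken as 2. For the scanner, background correction, normalization method and spot filter, the sources used here give nothing. Per the labels' protocols, dyes were coupled to aminoallyl cDNA for cortex, while VB cDNA was first amplified in a template-switching PCR and then labelled with Klenow fragment. Channel intensities were not used, so signal over background is unknown.

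Probes were named through their accession (15682 of 24107), symbol (2966) or synonym (1694), 27 kept the deposited symbol and 3738 had none. Both arrays of a swapped pair were averaged per litter, and probes of a gene were averaged. Features with at least 3 of 4 litters were tested against 0 in each tissue, and VB minus cortex over the 8 litter values of a gene (fewer where litters lacked a pair), in limma 3.58.1 (R 4.3.3; lmFit, eBayes, two-sided), with Benjamini-Hochberg adjustment over all features and calls at an adjusted p under 0.05. Intervals are limma's at 95%. The fits were tested on simulated data with independent arrays, no gap between dye assignments, no litter effect and columns that run 1 way. That simulation therefore does not bear on the dye gap or on the direction of the columns. Columns were used as deposited, and whether they run 1 way rests on weak correlations of swapped arrays.

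The labels number litters in both tissues, so litter was a replicate block in an alternative fit. VB and cortex deviations of the same litter had r of -0.0016 to 0.029 over 4248 features. The members, the other gene lists and the tests were chosen with earlier results of these data known. Genes were named if called, if their unadjusted p in a tissue was under 0.05, if on a short preset list, or if the most positive or negative of a role, with the lowest 2 p-values of other pathway genes per tissue.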

Additional observations from a re-analysis of the deposited data

Results flagged for a closer look

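Among 36 sets of 4 litter values of the cell cycle and centriole genes, 2 had 1 litter far from the others, and chance gives about 1 in 20. Cdkn1b, the gene of the CDK inhibitor p27, had a VB log2 ratio of 0.065 in litter 4, while the other litters lay between -0.16 and -0.14. Tyms had 0.16 in VB litter 2, while the others lay between -0.029 and -0.016. Its 2 probes disagreed, however. In litter 2 the arrays with mutant and control RNA in Cy5 had 0.60 and 0.16 for 1 probe and 0.012 and -0.14 for the other. In litter 4 they had 0.071 and -0.38 for the first probe and 0.37 and -0.13 for the other. The averaged values of Tyms hide this disagreement. Neither gene was called with all litters.

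Kif24 and Cep152 had ratios that differed between the tissues by limma, by 2.34 (adjusted p = 0.000595) and 1.77 (0.00308) for VB minus cortex. Mcm4 was positive in all 3 VB litters with a pair and negative in all 4 cortex litters, with means of 0.43 and -0.16 and a difference of 0.59 that did not pass (adjusted p = 0.153). Tissue and labelling method cannot be told apart in these differences.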

How the results depend on the processing

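The number of litters, missing pairs and the unknown direction and signal of the columns limit what can be read from these ratios. Settings not mentioned below left each count of calls within 1.5 times its main value. The dye term was fitted to single arrays with a shared correlation within litters, not to litter values. Called features in VB, 50 in all, became 19 with quantile normalization, 7 with unpaired arrays counted, 83 with a dye term, 1167 and 1678 with mutant and control RNA in Cy5 alone, 2784 with columns read as Cy5 over Cy3, 19 in 1 fit of both tissues and 11 to 95 without 1 litter. Called members, 5, became 3, 2, 2, 9 and 9 with quantile normalization, unpaired arrays, mutant and control RNA in Cy5 alone and the Cy5 over Cy3 reading, and 2 to 4 without 1 litter. In cortex the 10 called features became 18 with values in at least 2 litters, 2 with unpaired arrays, 16 with each probe on its own, 95 and 152 with the single dye assignments, 253 as Cy5 over Cy3, 37 in 1 fit of both tissues and 0 to 98 without 1 litter. The 0 called members there became 1 with values in at least 2 litters, with either dye assignment alone, as Cy5 over Cy3 and in 1 fit of both tissues. It was Kif24, except with control RNA in Cy5 alone, where it was Mki67. For VB minus cortex the 12 features became 5 with values in all 4 litters, 0 with unpaired arrays, 25 and 453 with the single dye assignments, 455 as Cy5 over Cy3 and 0 to 1 without 1 litter. The 2 members became 0, 0, 1, 5 and 1 under the same settings, and 0 to 1 without 1 litter. With values in all 4 litters neither Kif24 nor Cep152 had the values in cortex to be tested, and fits without 1 litter needed values in the other 3. With litter as a replicate block 16 features and 3 members were called, Ccnd3 joining Kif24 (2.29) and Cep152 (1.61), and the block changed no other call of a named gene.

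Ratios called in either setting turned sign when columns were read as Cy5 over Cy3: in VB to 0.42 for Btg1, 0.54 for Ccnd3, 0.64 for Cdkn1c, -1.71 for Cep152, -1.31 for Kif24, -0.52 for Mcm4 and -0.68 for Rb1, and for VB minus cortex to -2.18 for Cep152. With mutant RNA in Cy5 alone they turned to -0.21 for Cep152, -0.037 for Kif24 and -0.085 for Rb1 in VB, and to -0.42 for Cep152 between tissues. By their construction both settings weigh the dye assignments differently, and the cause of the gap between assignments was not tested. Of the other comparisons of a named gene with its main value, 337 stayed on the same side of the threshold or within the spread of litters, 17 lost a call, 16 gained one and 34 moved by more than that spread or turned sign without a call. The turned ones were 21: 10 as Cy5 over Cy3 (among them Mki67 in cortex to -0.46, Cep152 in cortex to 0.47 and Ccnd3 between tissues to 0.51), 4 with mutant RNA in Cy5 alone (among them Mcm4 in VB to -0.085), 6 with control RNA in Cy5 alone and 1 without litter 3.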

Other observations

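Some pathway genes outside the members, chosen after their values were seen, moved by amounts that did not pass. Cep290, a gene of the ciliary base, had VB litter values of 0.22, 0.31, 0.20 and 0.20, a mean of 0.23 ± 0.054 (SD, n = 4; limma adjusted p = 0.224), positive in both dye assignments. E2f6, a repressing member of the E2F family, had cortex litter values of -0.30, -0.19, -0.32 and -0.34, a mean of -0.29 ± 0.068 (n = 4; adjusted p = 0.514). Pold1, the catalytic subunit of DNA polymerase delta, had -0.21 ± 0.16 in VB (adjusted p = 0.384) and -0.54 ± 0.69 in cortex (0.509), where litter 4 stood at -1.57 and litter 1 at -0.074.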
